A study of Macaca fascicularis with 64 samples.

Results

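Heat shock proteins of the cytosol and the mitochondrion were followed through the 4 endocrine cell types of cynomolgus islets and between young and old monkeys. The group was a list of 10 genes drawn up by name: HSP90AA1, HSP90AB1, HSPA8, HSPH1, HSPB1, DNAJB1, DNAJA1, BAG3, HSPD1 and HSPE1. The UMI counts of 8 of them, out of 21041 macaque genes, are described here, and DNAJB1 and HSPE1 were not analysed here. The animals were 16 healthy Macaca fascicularis, 8 young (4 to 6 years) and 8 old (18 to 21 years), each age group with 4 females and 4 males, none of them treated or genetically altered. Islets were hand-picked from the tail of the pancreas, dissociated with enzymes and sorted on propidium iodide to remove debris. Single cells were then drawn by mouth pipette into 4 barcoded libraries per monkey.

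Cells with more than 800 genes and more than 10000 UMIs were used, which left 5908 of 6141 barcodes, and each was given the type of its highest hormone transcript among GCG (glucagon), INS (insulin), SST (somatostatin) and PPY (pancreatic polypeptide). This gave 4503 α-cells, 1219 β-cells, 112 δ-cells and 74 PP-cells. No 2 cells had identical counts, and between 20719761 and 34053080 UMIs were counted per monkey. Each hormone was high in its own type, which the rule for the types fixes in advance, so it is no check of them. The median over monkeys was 75335 counts per 1000000 UMIs of macaque genes (CPM) for GCG in α-cells, 61065 for INS in β-cells, 89741 for SST in δ-cells and 92032 for PPY in PP-cells. The types were not clean of other hormones: GCG had a median of 21060 CPM in β-cells, 24363 in δ-cells and 32417 in PP-cells. A total of 753 cells did not have 3 times as many UMIs of the highest hormone as of the next. Under that stricter rule only 1 monkey kept at least 5 PP-cells, with 6 cells, and 6 monkeys kept as many δ-cells.

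Heat shock proteins are chaperones, which keep other proteins from clumping and help them fold. HSP90AA1 and HSP90AB1 are the stress-inducible and the constitutive form of cytosolic HSP90, which completes the folding of kinases and steroid receptors. HSPA8 is the constitutive cytosolic HSP70. It works in a cycle with J-domain proteins such as DNAJA1, which bring it substrates, and with nucleotide exchange factors such as HSPH1 and BAG3, of which BAG3 also steers damaged proteins to autophagy. HSPB1 is a small heat shock protein that holds unfolded chains without using ATP. HSPD1 is the chaperonin of the mitochondrial matrix, where HSPE1 is its lid. The heat shock factor HSF1 raises many of these genes on heat, oxidants and other insults to proteins.

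The monkey was the replicate, and its cells of 1 type were added up wherever it had at least 5 of them. The sums covered all 16 monkeys for α- and β-cells, 11 monkeys with 101 cells for δ-cells (7 young, 4 old) and 6 monkeys with 66 cells for PP-cells (2 young, 4 old). One old female gave 33 of the PP-cells. Levels are CPM of these sums, and differences are log2 fold changes from edgeR's quasi-likelihood test, with the standard error (SE) and the p adjusted by Benjamini-Hochberg over all genes tested. Levels of different genes were not compared with each other.

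The cell types were compared first. Type was a contrast within monkeys in a single fit of 14648 genes, and 18 of the 48 comparisons of a heat shock gene between 2 types passed the adjusted threshold of 0.05. When the adjusted p was also multiplied by 6 for the number of type contrasts, 11 of the 48 passed. Over all genes, 25.7% passed between β- and α-cells, 22.8% between δ- and α-cells, 6.32% between PP- and α-cells, 18% between δ- and β-cells, 15.6% between PP- and β-cells and 8.86% between PP- and δ-cells. Against these shares, 1 of 8 heat shock genes passed for β over α, 4 for δ over α, 2 for PP over α, 3 for δ over β, 3 for PP over β and 5 for PP over δ. The median log2 difference of the 8 genes was -0.21, -0.24, 0.67, -0.12, 0.80 and 0.81 in that order, beside -0.20, -0.57, -0.49, -0.40, -0.32 and 0.08 over all genes tested. All 8 genes had a positive estimate in the 3 comparisons of PP-cells with another type, but not all of them rose within monkeys. For PP over α the estimates of HSPA8 and HSPD1 were only 0.002 and 0.04, and the α-cells were higher in 4 of 6 monkeys for both. Between PP- and β-cells HSP90AB1 was higher in each type in 3 of 6 monkeys.

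**Figure D1:**
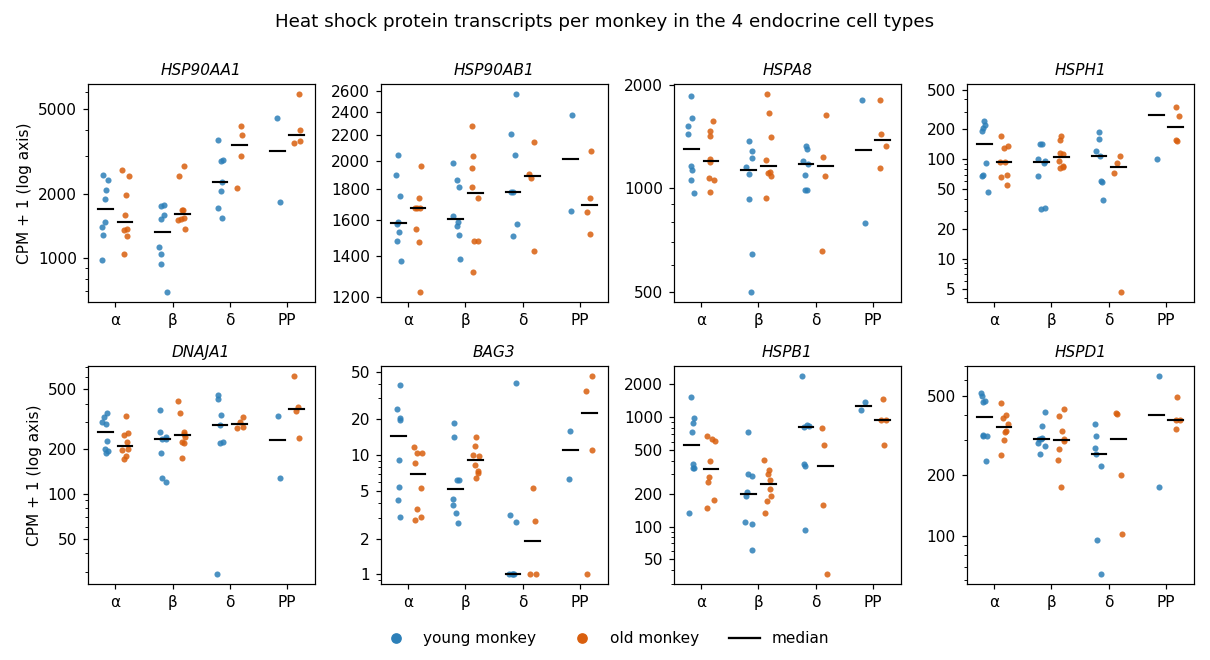
Levels of the 8 heat shock genes in each monkey (1 point per monkey, CPM + 1 on a log axis) in α-, β-, δ- and PP-cells, with young monkeys in blue, old monkeys in orange and the median of each age group as a bar. Each panel has its own axis: the medians of HSP90AA1 and HSPB1 are highest in PP-cells, that of HSPB1 is lowest in β-cells, BAG3 is at 0 in 6 of 11 δ-cell sums, and all values of HSP90AB1 lie between 1221 and 2569 CPM.

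HSP90AA1, the inducible HSP90, was higher in δ- and PP-cells than in the other types. Its level had a median of 1534 CPM (977 to 2604) in α-cells, 1539 CPM (689 to 2706) in β-cells, 2859.6 CPM (1545 to 4182) in δ-cells and 3769 CPM in PP-cells. In the PP-cells of single monkeys it was 1837 CPM in young male 1 and 4536 CPM in young male 4, and 5902 CPM in old female 1, 3529.9 CPM in old female 2, 3461 CPM in old male 2 and 4009 CPM in old male 4. Only young male 1 lay within the range of α-cells, and it had the second lowest level among the 11 δ-cell monkeys too.

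The δ-cells had more HSP90AA1 than the α-cells in 11 of 11 monkeys, with a log2 fold change of 0.43 (SE 0.13, adjusted p = 0.013), and more than the β-cells in 11 of 11 (0.61, SE 0.13, adjusted p = 0.00064). The PP-cells had more than the α-cells in 6 of 6 monkeys (1.07, SE 0.17, adjusted p = 1.5e-05) and more than the β-cells in 6 of 6 (1.25, SE 0.16, adjusted p = 1e-07). Between PP- and δ-cells the fitted difference was 0.64 (SE 0.18, adjusted p = 0.014), but the PP-cells were higher in only 3 of the 5 monkeys with both types. The call was lost in 3 of 7 other settings, and without old female 1 the value was 0.34 with an adjusted p of 0.233. The α- and β-cells did not differ beyond the spread between monkeys (-0.18, 95% interval -0.41 to 0.05, adjusted p = 0.261). When cells were thinned to 10000 UMIs of macaque genes, which left out 45 cells with fewer, the difference between δ- and α-cells was 0.23 with an adjusted p of 0.200. In cells with 3 times as many UMIs of the highest hormone as of the next, it was 0.47 with an adjusted p of 0.071, and that between δ- and β-cells was 0.69 with 0.016. The PP-cells then came from 1 monkey, so that their contrasts have no replicate check under this rule.

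HSP90AB1, the constitutive HSP90, is written Hsp90ab1 in the count tables, and that row was taken as the gene. Its median was 1631 CPM (1221 to 2047) in α-cells, 1682 CPM (1320.4 to 2280.3) in β-cells, 1873 CPM (1428 to 2569) in δ-cells and 1698 CPM (1519.5 to 2377) in PP-cells, so that the ranges of all 4 types overlapped. The coefficient of variation between monkeys was 13.1% in α-cells, 15.4% in β-cells, 17.8% in δ-cells and 17.7% in PP-cells. In none of the 6 contrasts did it pass the test, and the widest 95% interval, for PP over δ, ran from -0.13 to 0.39. The biological coefficient of variation that edgeR estimated for it lay at the 0.20 percentile of all genes in the fit over types. With DESeq2 in place of edgeR it passed for δ over α (0.25, adjusted p = 0.041), where edgeR gave -0.02, and for PP over α (0.35, adjusted p = 0.040) and PP over β (0.31, adjusted p = 0.043). With DESeq2 the log2 fold changes of all genes also shifted, by a median of 0.28, 0.24 and 0.24 in the same 3 contrasts. The part of its scaling in this was not tested.

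Among the partners of the HSP70 cycle, HSPA8 had overlapping ranges in the 4 types. It had a median of 1204 CPM (967 to 1853) in α-cells, 1132 CPM (498 to 1880.2) in β-cells, 1179.9 CPM (655 to 1636) in δ-cells and 1383 CPM (791 to 1810.5) in PP-cells. It was lower in δ- than in α-cells in 8 of 11 monkeys (-0.37, SE 0.13, adjusted p = 0.040). This call was lost when any of 9 of the 16 monkeys was left out (-0.43 to -0.29 over all 16) and in 6 of 7 other settings. It passed in no other contrast.

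DNAJA1, the J-domain partner, passed in no contrast. It had a median of 222 CPM (169 to 347) in α-cells, 235 CPM (119 to 418) in β-cells, 286 CPM (27.7 to 455) in δ-cells and 343 CPM (125 to 612) in PP-cells. The largest difference, PP over δ, was 0.41 with a 95% interval from -0.17 to 0.98.

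HSPH1, the large HSP110 exchange factor, was higher in PP-cells. It had a median of 92.9 CPM (45.4 to 241) in α-cells, 95.3 CPM (30.6 to 170.1) in β-cells, 91.4 CPM (3.60 to 188) in δ-cells and 211 CPM (99.5 to 453) in PP-cells. The PP-cells had more than the δ-cells in 5 of 5 monkeys (1.68, SE 0.40, adjusted p = 0.0038) and more than the β-cells in 4 of 6 (1.26, SE 0.35, adjusted p = 0.0090). Against α-cells the difference of 1.05 (SE 0.36, adjusted p = 0.068), higher in 5 of 6 monkeys, did not pass. In cells thinned to 10000 UMIs the difference between PP- and β-cells was 0.61 with an adjusted p of 0.225.

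BAG3 was measured on few UMIs. It had a median of 7.84 CPM (1.88 to 38.1) in α-cells, 6.20 CPM (1.71 to 17.7) in β-cells and 12.4 CPM (0 to 45.2) in PP-cells, and a median of 0 in δ-cells, where 6 of 11 monkeys had no UMI of it. Of the 16 UMIs in all δ-cell sums, 10 came from young female 2 (39.3 CPM), and no other δ-cell sum was above 4.35 CPM. It was lower in δ-cells than in α-cells in 10 of 11 monkeys (-2.37, SE 0.71, adjusted p = 0.012) and than in β-cells in 10 of 11 (-2.14, SE 0.73, adjusted p = 0.034), and higher in PP- than in δ-cells in 4 of 5 (3.61, SE 0.90, adjusted p = 0.0063). The call against β-cells passed in 3 of 7 other settings and was lost without any of 6 single monkeys, with adjusted p from 0.051 to 0.081, and that between PP- and δ-cells without old female 1 (2.81, adjusted p = 0.055). Without the top 5% of cells by UMIs the value against α-cells was -1.68 with an adjusted p of 0.116.

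HSPB1, the small heat shock protein, had its highest median in PP-cells and its lowest in β-cells. Its median was 1061 CPM (551 to 1457) in PP-cells, 559 CPM (35.4 to 2385) in δ-cells, 383 CPM (133 to 1523) in α-cells and 213 CPM (60.5 to 736) in β-cells. The β-cells had less than the α-cells in 13 of 16 monkeys, with a median ratio of 0.493 and a log2 fold change of -0.93 (SE 0.26, adjusted p = 0.0045).

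In PP-cells the level of HSPB1 was 1170.2 CPM in young male 1, 1391 CPM in young male 4, 1457 CPM in old female 1, 951 CPM in old female 2, 551 CPM in old male 2 and 942 CPM in old male 4. Each of these was above the same animal's α-cells and β-cells (372, 133, 256, 606, 281 and 394 CPM in α-cells, in the same order). The PP-cells were higher than the α-cells by 1.89 (SE 0.37, adjusted p = 0.00064), than the β-cells by 2.83 (SE 0.36, adjusted p = 6.7e-08) and than the δ-cells by 1.98 (SE 0.41, adjusted p = 0.00093, higher in 5 of 5). The δ-cells varied widely, from 35.4 CPM in old female 1 to 2385 CPM in young female 3, and did not differ from α-cells beyond that spread (-0.09, 95% interval -0.68 to 0.50). They had more than β-cells in 8 of 11 monkeys with a median ratio of 2.90, but the value of 0.85 (SE 0.31, adjusted p = 0.0504) did not pass, although it did in 6 of 7 other settings. Under the stricter hormone rule HSPB1 was higher in PP-cells than in α-, β- and δ-cells by 3.45, 4.45 and 3.87, but these values rest on 6 PP-cells of 1 monkey.

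HSPD1, the mitochondrial chaperonin, was lower in δ-cells. Its median was 346 CPM (236 to 513) in α-cells, 302 CPM (175 to 426) in β-cells, 256 CPM (63.0 to 409) in δ-cells and 379 CPM (175 to 625) in PP-cells. The δ-cells had less than the α-cells in 9 of 11 monkeys (-0.93, SE 0.19, adjusted p = 0.00024) and less than the β-cells in 7 of 11 (-0.65, SE 0.19, adjusted p = 0.011), and the PP-cells had more than the δ-cells in 3 of 5 (0.98, SE 0.25, adjusted p = 0.0079). In the δ-cells the lowest monkeys were young male 1 (63.0 CPM, 13 UMIs), young female 2 (94.4 CPM, 24 UMIs) and old female 1 (100.5 CPM, 71 UMIs), while old males 2 and 4 lay at 403 and 409 CPM, within the range of α-cells. The β-cells were lower than the α-cells in 14 of 16 monkeys, but the value of -0.29 (SE 0.16, adjusted p = 0.189) did not pass, except in thinned cells (-0.38, adjusted p = 0.037). Under the stricter hormone rule the values against α- and β-cells were -0.50 and -0.11 (adjusted p = 0.324 and 0.888), and the call against β-cells passed in only 3 of 7 other settings (-0.69 to -0.11). The call between PP- and δ-cells was lost without old female 1 (0.70, adjusted p = 0.090).

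**Figure D2:**
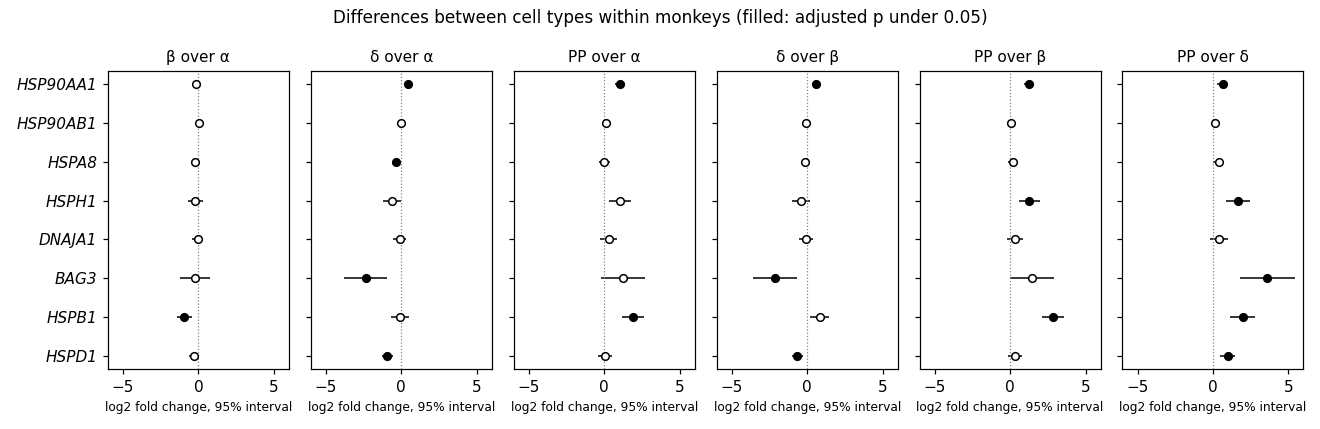
Log2 fold changes of the 8 heat shock genes in the 6 contrasts between cell types, with 95% intervals from the edgeR fit and filled points where the adjusted p is under 0.05. The 18 filled points include HSPB1 at -0.93 for β over α and at 2.83 for PP over β, and HSP90AA1 in every contrast of δ- or PP-cells.

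Immediate-early genes, such as FOS, EGR1 and NR4A1, which cells switch on within minutes of a stimulus, were set beside these values. The summed level of the 13 found of 14 listed had a median over monkeys of 5826 CPM (2919 to 7648) in PP-cells, 3984 CPM (1485 to 6462) in α-cells, 2226 CPM (709.7 to 4886) in δ-cells and 904 CPM (456 to 1612) in β-cells. The α- and PP-cells, which had more HSPB1 than the β-cells, had the 2 highest medians of these genes. In the δ-cells the median ratio of HSPB1 over the β-cells was 2.90, but that difference did not pass. Against the α-cells, the δ-cells had more HSPB1 in 6 of 11 monkeys, and the fitted difference was -0.09. The median of the immediate-early genes in δ-cells lay between those of the β- and α-cells. In β-cells 11 of the 13 were lower than in α-cells, with NR4A1 at -2.32 (SE 0.13, adjusted p = 6.9e-20). Over all genes 25.7% were called there in either direction, and 29.4% of those calls were higher. In PP-cells 10 of the 13 immediate-early genes were higher than in β-cells and 9 higher than in δ-cells. Over all genes 15.6% and 8.86% were called in either direction, and 38.8% and 62.6% of those calls were higher. The part of the immediate-early genes in the differences of the heat shock genes was not tested. The median UMIs per cell were 64894 in α-cells, 74425 in β-cells, 43776 in δ-cells and 45772.5 in PP-cells, so the types also differed in depth. Of markers of non-endocrine cells in the δ- and PP-cells, the summed level of 5 acinar genes was at most 157 CPM, that of 7 endothelial genes at most 71.7 CPM and that of 9 immune genes at most 363 CPM. The 6 ductal genes reached 754 CPM in the δ-cells of an old monkey, and 8 stellate genes reached 1165 CPM in the PP-cells of an old monkey. Their part in the heat shock values was not tested.

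Other genes of protein folding moved with the types in their own ways, on lists written from general knowledge. Of 5 small heat shock proteins tested beyond HSPB1, CRYAB (alphaB-crystallin) followed HSPB1 in part: it was lower in β- than in α-cells (-2.01, SE 0.28, adjusted p = 1.1e-07) and higher in PP-cells than in β-cells (1.67, SE 0.42, adjusted p = 0.0036) and δ-cells (2.39, SE 0.45, adjusted p = 0.00024). Unlike HSPB1, it was also lower in δ- than in α-cells (-2.73, SE 0.36, adjusted p = 8.5e-08). HSPB8, the small heat shock protein that pairs with BAG3, had few UMIs and was higher in δ- than in α-cells (4.72, SE 0.95, adjusted p = 0.00013) and than in β-cells (3.94, SE 1.01, adjusted p = 0.0035). In PP-cells, 3 of 12 J-domain genes of the cytosol were higher than in β-cells, among them DNAJA4 (3.01, SE 0.58, adjusted p = 0.00020) and DNAJB4 (1.35, SE 0.38, adjusted p = 0.011), and 1, DNAJC7, was lower (-1.52, SE 0.35, adjusted p = 0.0017). Over all genes, 15.6% passed in this contrast in either direction.

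Around HSP90, FKBP5, an immunophilin partner of steroid receptors, was higher in β- than in α-cells (1.16, SE 0.33, adjusted p = 0.0068) and lower in PP-cells than in α-cells (-2.71, SE 0.75, adjusted p = 0.020) and β-cells (-3.87, SE 0.74, adjusted p = 0.00017). BAG5, another partner of HSP70, was higher in β- than in α-cells (1.72, SE 0.32, adjusted p = 4.2e-05). HSF4 was the member of 4 heat shock factors and regulators that passed there (1.45, SE 0.41, adjusted p = 0.0062), beside 25.7% of all genes. GRPEL1, the exchange factor of mitochondrial HSP70, was lower in δ-cells (-2.08, SE 0.40, adjusted p = 9.8e-05) and in PP-cells (-2.04, SE 0.51, adjusted p = 0.011) than in α-cells. No other gene of the 12 mitochondrial chaperones and proteases tested passed in these contrasts, beside 22.8% and 6.32% of all genes. The cytosolic chaperonin TRiC (7 genes) and prefoldin (6 genes) had no call between β- and α-cells, beside 25.7% of all genes. Of the chaperones of the endoplasmic reticulum (ER), 8 of 19 were higher and 1 lower in β- than in α-cells, beside 25.7% of all genes called in either direction, with P4HB at 0.98 (SE 0.13, adjusted p = 6.3e-08). In δ-cells 15 of 19 were lower than in β-cells and none higher, beside 18% of all genes called in either direction. Of those calls over all genes, 27.6% were higher.

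Old and young monkeys were compared next, with sex in the model. No heat shock gene passed the test for age in any cell type, and few genes of the genome did: 0% of 13486 genes in α-cells, 0.045% of 11101 in β-cells, 0% of 7405 in δ-cells and 0% of 6568 in PP-cells. The values in young and old monkeys overlapped for each of the 8 genes in each of the 4 types. At an unadjusted p under 0.05, edgeR gave 928 genes in α-cells, 613 in β-cells, 279 in δ-cells and 397 in PP-cells, and 2, 1, 0 and 0 heat shock genes. With DESeq2, 26, 41, 3 and 2 genes passed the adjusted threshold in the same order, none of them a heat shock gene.

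In α-cells, all 8 estimates were below 0, with a median of -0.18 beside 0.0018 over all genes. HSPB1 ranged from 133 to 1523 CPM (median 551) in young and from 147 to 676 CPM (median 338) in old monkeys, and the fitted difference was -0.74 (SE 0.34, adjusted p = 0.713). BAG3 ranged from 2.05 to 38.1 CPM (median 13.5) in young and from 1.88 to 10.8 CPM (median 5.97) in old monkeys, a difference of -1.28 (SE 0.57, adjusted p = 0.713), with no old monkey above the young median. HSP90AA1 was nearly level, with medians of 1690.3 and 1479 CPM and a difference of -0.02 (95% interval -0.48 to 0.45). For HSP90AB1 the interval ran from -0.27 to 0.19. The summed immediate-early genes had medians of 4237 CPM in young and 3282 CPM in old α-cells, and 11 of 11 tested had an estimate below 0 with none passing. Some markers of other cells were also higher in some young α-cell sums: 5 acinar genes summed to between 1.27 and 2251 CPM in young and between 0.554 and 7.30 CPM in old monkeys, and 9 immune genes to between 11.3 and 1905 CPM and between 22.1 and 242 CPM. The highest sum of 7 endothelial genes was 156 CPM in young and 69.8 CPM in old monkeys. Other lists went the other way: 6 ductal genes summed to between 23.5 and 115 CPM in young and between 63.4 and 330 CPM in old monkeys. The highest sum of 8 stellate genes was 124 CPM in young and 320 CPM in old monkeys. The part of these in the heat shock values was not tested.

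In β-cells, 7 of 8 estimates were above 0, with a median of 0.33 beside 0.012 over all genes. HSP90AA1 ranged from 689 to 1781 CPM (median 1330.2) in young and from 1368 to 2706 CPM (median 1609.9) in old monkeys, and all 8 old monkeys were above the young median. The difference was 0.48 (SE 0.21, adjusted p = 0.884), and it kept its direction in 27 of 27 alternatives, between 0.33 and 0.63, with no adjusted p under 0.517. HSPA8 had medians of 1126 CPM in young and 1159 CPM in old monkeys (0.37, SE 0.20, adjusted p = 0.938). BAG3 had 4.24 and 8.09 CPM (0.64, SE 0.52, adjusted p = 0.986), again with 8 of 8 old monkeys above the young median. For both HSP90AA1 and BAG3, 2 of 8 young monkeys were above the old median. The exact permutation test gave BAG3 an unadjusted p of 0.294. HSPD1 was even, with 302 and 299.6 CPM (-0.04, 95% interval -0.41 to 0.33). The lowest levels of HSP90AA1, HSPA8 and HSPH1 among all β-cell sums were those of young male 2, at 689, 498 and 30.6 CPM.

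**Figure D3:**
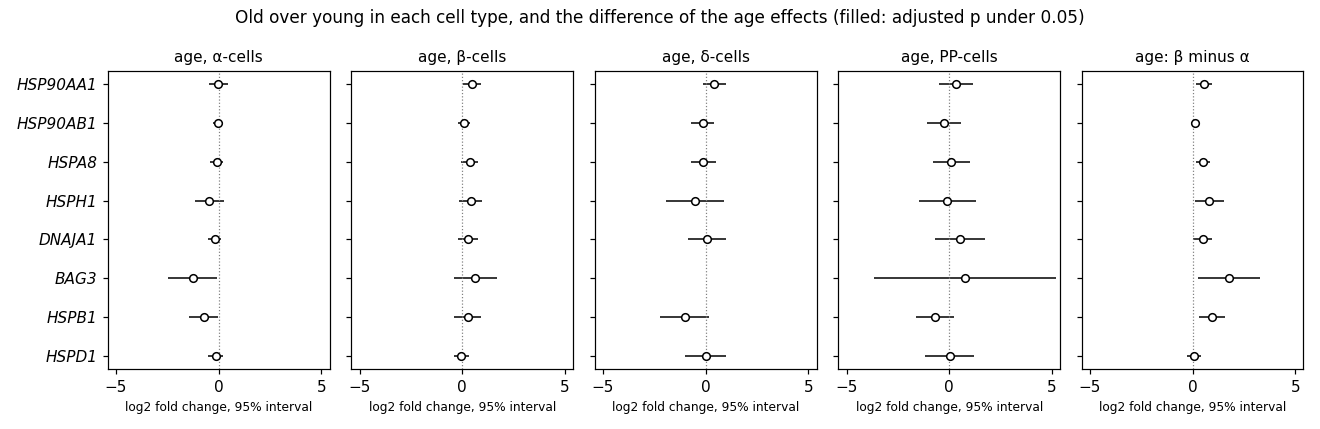
Log2 fold changes of old over young monkeys with 95% intervals in each cell type, and in the last panel the age effect in β-cells minus that in α-cells, from edgeR. No point is filled, since no adjusted p is under 0.05, and BAG3 has no value in δ-cells, where it was below the filter on low counts.

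Several other measures also differed in value between young and old β-cells, and none of those tested passed for age. The median over monkeys of the UMIs per cell was 64325 in young and 75900.5 in old β-cells, with the lowest, 30098.5, in young male 3. The summed level of 6 ductal markers ran from 66.1 to 1428 CPM in young and from 383 to 5302 CPM in old β-cells, nearly all of it SPP1, with medians of 179 and 1687 CPM, while the ductal gene CFTR was at 0. Of 18 ER chaperones, 18 had an estimate above 0 and 10 an unadjusted p under 0.05 with a median of 0.56, and none passed after adjustment. The largest of these by p were SDF2L1 (1.50, SE 0.39, adjusted p = 0.302) and HSP90B1, the HSP90 of the ER (0.74, SE 0.22, adjusted p = 0.473). The part of these in the heat shock values was not tested.

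The difference between the age effects in β- and α-cells was tested within monkeys over 15441 genes, of which 0% passed. All 8 heat shock genes had a positive estimate, with a median of 0.52 beside 0.05 over all genes, and 6 of 8 had an unadjusted p under 0.05, as had 920 of the 15441 genes. The values were 0.94 for HSPB1 (SE 0.32, adjusted p = 0.661), 0.55 for HSP90AA1 (SE 0.19, adjusted p = 0.661), 0.48 for HSPA8 (SE 0.17, adjusted p = 0.662), 0.82 for HSPH1 (SE 0.35), 0.49 for DNAJA1 (SE 0.22) and 1.78 for BAG3 (SE 0.73). HSP90AB1 (0.11, SE 0.10) and HSPD1 (0.07, SE 0.16) lay near 0. Of the ER chaperones, 9 of 19 had an unadjusted p under 0.05 in the same test, and of the immediate-early genes 4 of 13, with medians of 0.54 and 0.50.

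Sex entered through a fit with 4 groups. In male β-cells all 8 estimates of age were above 0 (median 0.76), and in female β-cells 3 of 8 (median -0.02). No heat shock gene passed in either, beside 0.0257% and 0% of 11693 genes. HSP90AA1 in males was 1130.3, 689, 935 and 1747 CPM in the young and 1501, 2706, 1528 and 2438 CPM in the old animals, in the order of their numbers, so that young male 4 alone overlapped the old males (0.92, SE 0.27, adjusted p = 0.491). In females it was 1045, 1781, 1592 and 1530.1 CPM in the young and 1368, 1673, 1677 and 1547 CPM in the old (0.04, SE 0.27, adjusted p = 0.998). The interaction of sex and age was 0.88 for HSP90AA1 (SE 0.38) and 1.43 for HSPB1 (SE 0.56), with an adjusted p of 0.9999 for both, and 0% of genes passed. In α-cells the interaction passed for 0.00707% of 14146 genes and for no heat shock gene, whose estimates ran from 0.15 to 0.68.

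In δ-cells, 7 of the 8 genes were tested for age, with a median of -0.11, and HSPB1 was lower in old monkeys by estimate (-1.02, SE 0.59, adjusted p = 0.9995), at medians of 817 and 357 CPM. In PP-cells, with 2 young monkeys against 4 old, the intervals were wide, and that of HSP90AA1 ran from -0.49 to 1.14.

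The levels of the heat shock genes were also compared from monkey to monkey. Over the 16 monkeys, the correlation (Pearson's r of log2(CPM + 1)) of the 28 pairs of genes ran from 0.53 to 0.92 in α-cells, with the highest for HSPA8 and HSPD1 (0.92) and for HSPH1 and BAG3 (0.91). In β-cells it ran from -0.08 to 0.92, with the highest for HSP90AA1 and HSPA8 (0.92) and for HSPA8 and HSPH1 (0.89), while DNAJA1 and BAG3 had -0.08. Within an age group, the range in α-cells was 0.61 to 0.98 in the 8 young and 0.06 (HSPB1 and HSPD1) to 0.90 in the 8 old monkeys. In β-cells it was -0.39 to 0.94 in the young and -0.68 (BAG3 and HSPB1) to 0.89 in the old. These values are a description, since the genes of a monkey share its libraries, depth and total. In the 64 α-cell libraries of 32 to 95 cells, the share of the variance that lay between monkeys, and not between the 4 libraries of a monkey, was 87.5% for HSP90AA1, 85.5% for HSPA8, 83.7% for HSPB1, 68.1% for HSPH1, 67.9% for DNAJA1, 60.8% for HSP90AB1, 59.5% for HSPD1 and 42.9% for BAG3. The SD between the libraries of a monkey was 0.17 (log2) for HSP90AA1, 0.12 for HSPA8 and 0.43 for HSPB1, and that between monkeys 0.45, 0.29 and 1.00.

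**Figure D4:**
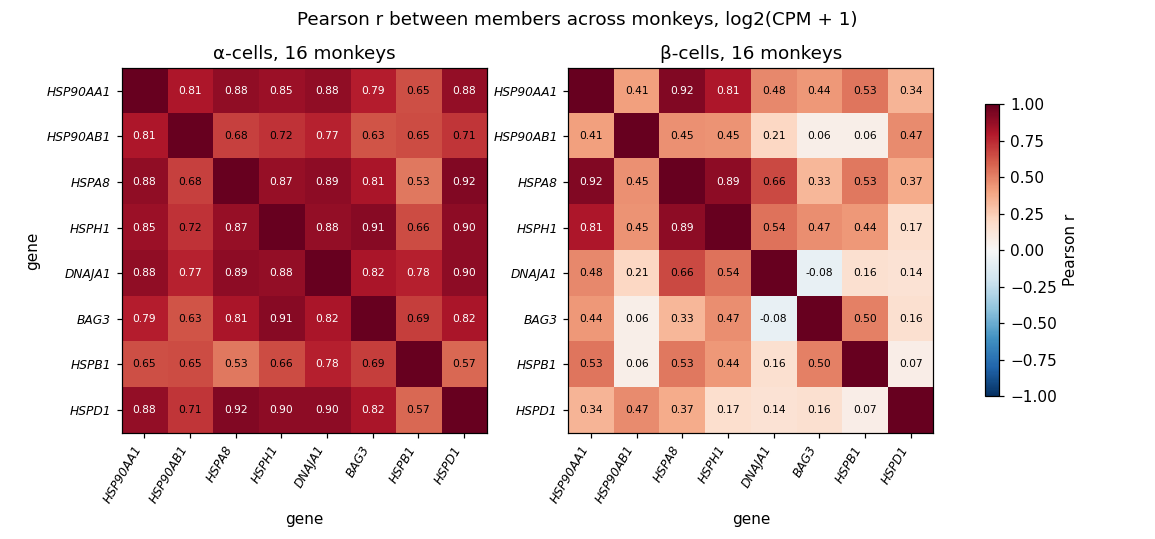
Pearson's r between the heat shock genes over 16 monkeys, on log2(CPM + 1), in α-cells and β-cells, with the value printed in each cell. In α-cells all 28 pairs are positive, from 0.53 to 0.92, and in β-cells they run from -0.08 to 0.92.

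The genes most like the mean of the 8 (as z scores over the 16 monkeys) were sought among genes with a mean of at least 10 CPM. In α-cells, out of 8057 genes, they were ENSMFAG00000042314 (r = 0.85), MXD1 (0.83), DNAJB4 (0.82), PTGES3 (0.81) and ENSMFAG00000041011 (0.80). In β-cells, out of 7918 genes, they were CCT5 (0.82) and CCT4 (0.80) of the TRiC chaperonin, AHSA1 (0.79), which activates HSP90, PTGES3 (0.77), the p23 partner of HSP90, and GALNT14 (0.76).

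In α-cells, monkeys with more of the immediate-early genes had more HSPB1. Against the mean log2 level of the 13 genes, r was 0.78 over 16 monkeys (permutation p = 0.00048, 0.0154 adjusted over the 32 relations of 8 genes, 2 types and 2 measures), and Spearman's rho was 0.72 (permutation p = 0.0023, adjusted 0.0746). Without the 2 monkeys farthest from the median, old males 1 and 3, r was 0.67, and it was 0.73 in the 8 young and 0.85 in the 8 old monkeys. None of the other 31 relations passed after adjustment by either measure. In β-cells the same relation of HSPB1 had r = 0.44 (permutation p = 0.092, adjusted 0.295) and rho = 0.34, with r = 0.73 in the young and -0.05 in the old monkeys. Against the median UMIs per cell, no r in α-cells was beyond -0.13 or 0.12, while in β-cells HSP90AA1 had 0.55, HSPA8 0.56 and HSPH1 0.59, each with an adjusted permutation p of 0.160. In the 8 old monkeys alone these 3 were -0.12, -0.43 and -0.57.

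**Figure D5:**
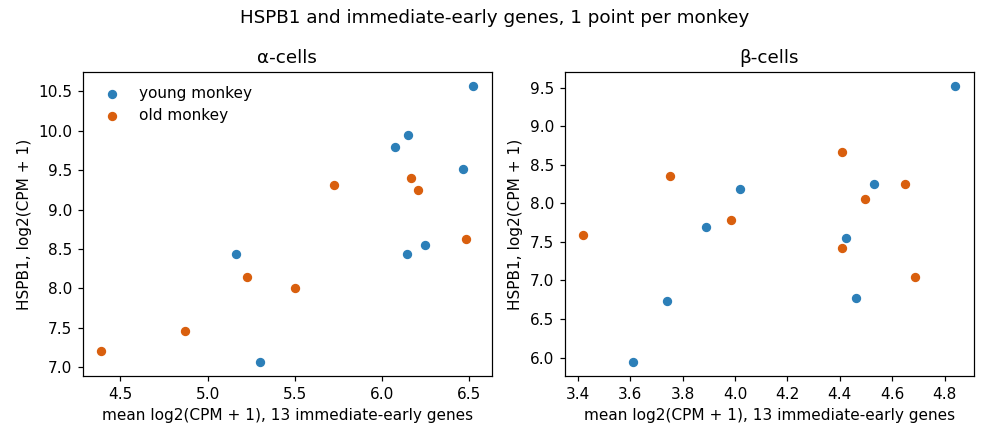
HSPB1 against the mean of 13 immediate-early genes, both as log2(CPM + 1), with 1 point per monkey in α-cells (left) and β-cells (right) and young monkeys in blue and old in orange. In α-cells the points rise together (r = 0.78), and in β-cells they scatter (r = 0.44).

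Within monkeys, from cell to cell, the genes were only loosely linked. The median r over the 28 pairs, on log2(CPM/10 + 1), had a median over monkeys of 0.119 in α-cells (16 monkeys, 0.062 to 0.296) and 0.100 in β-cells (12 monkeys with at least 30 cells, 0.065 to 0.228), and 0.067 and 0.077 after thinning to 10000 UMIs. These sparse counts allow no reading of single pairs. HSP90AA1, HSP90AB1 and HSPA8 had a UMI in over 99% of α- and β-cells. HSPB1 had one in 94.1% of α-cells and 90.4% of β-cells (76.7% and 62.3% after thinning), HSPH1 in 70.7% and 70.3%, and BAG3 in 14.3% and 13.4%.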

How the data were processed

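Single-cell RNA-seq of islets was processed by the authors, who trimmed the reads, aligned them to Macaca_fascicularis_5.0 with TopHat2 2.0.12 (CASAVA 1.8 is also named in the submitters' processing notes), counted reads per gene with HTSeq and collapsed identical UMIs. The deposited values are UMI counts per gene and cell, not normalized. From these, counts were summed per monkey and type in Python 3.11.15 and tested in R 4.3.3 with edgeR 4.0.16 (TMM, filterByExpr, quasi-likelihood, Benjamini-Hochberg over all genes, threshold 0.05). Age was tested with sex as covariate, types with the monkey as a block. Cells were not used as replicates, and the study's filter on the mapping rate was not applied. CPM levels were not scaled by TMM. Spike-in RNAs (5.41% of UMIs) counted towards the minimum of UMIs per cell and were left out of the other totals. Doublets were not called; the top 5% of cells by UMIs were left out as an alternative. The fits were tested on simulated data. Alternatives were DESeq2 1.42.0, other filters, scalings, covariates, type rules and depths, and leaving out each monkey.

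The genes and lists were chosen with earlier results of these data known. All list members were named; of each other list, the 3 genes with the smallest p in a comparison may be named, or 2 where none passes, plus the 5 genes most like the members. SPP1 was named after its values were seen. Animals were taken on sequential days, 1 per day, so day and animal cannot be told apart.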

Additional observations from a re-analysis of the deposited data

Results flagged for a closer look

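Of 56 sets of values checked (1 gene in 1 type and age group with 4 to 10 monkeys), 3 held a monkey far above the others by Dixon's criterion, which chance meets in about 1 in 20 sets. BAG3 in the δ-cells of young monkeys was 39.3 CPM in young female 2 (10 UMIs in 6 cells), and the next highest of the 7 monkeys had 2.13 CPM. HSPB1 in the β-cells of young monkeys was 736 CPM in young female 2 (458 UMIs in 11 cells), and the next of the 8 had 304 CPM. HSPB1 in the δ-cells of young monkeys was 2385 CPM in young female 3 (1372 UMIs in 11 cells), and the next of the 7 had 853 CPM. In all 3 sets the high value came from a sum of 6 to 11 cells. Young female 2 also had the highest HSPB1 of the 16 α-cell sums (1523 CPM, 33273 UMIs in 362 cells).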

How the results depend on the processing

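No heat shock gene passed for age under any alternative or with any monkey left out. For sex by age and age by type, the only settings tried were thinned cells and leaving out each monkey. No heat shock gene passed in these either. Counts of all genes called for age moved as follows. In α-cells (0) they were 26 with DESeq2. In β-cells (5) they were 41 with DESeq2, 21 without the filter on low counts, 3 without the top 5% of cells by UMIs, 1 with the highest hormone at 3 times the next, 1 with at least 30 cells and 0 by the exact permutation test on mean log2 values. In δ-cells (0) they were 3 with DESeq2, 3 without the filter, 3 with at least 10 cells, 1 with over 2000 genes and 20000 UMIs and 1 without the top cells. In PP-cells (0) they were 2 with DESeq2, 9 without the filter, 1 without sex and 7 without the top cells. For age by type (0) 8 passed in thinned cells. With a replicate block, 3 genes passed in α-cells, 11 in β-cells and 1 in δ-cells, none of them a heat shock gene, but monkeys with the same number did not deviate together (correlations of -0.07 to 0.13), so they share only a number, and PP-cells allowed no such fit. Leaving out single monkeys gave 2 to 8 genes in β-cells, 0 to 1 in δ-cells, 4 to 12 in PP-cells, 1 to 2 and 0 to 1 for sex by age in α- and β-cells and 0 to 1 for age by type.

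Between types, the number of heat shock genes called was 2 for β over α in thinned cells (main 1), 1 and 2 for δ over α with the stricter hormone rule and without the top cells (main 4), 4 and 0 for PP over α with DESeq2 and the stricter rule (main 2), 1 for δ over β with the stricter rule (main 3), 5 for PP over β with DESeq2 (main 3) and 1 for PP over δ with the stricter rule (main 5), or 2 to 5 without single monkeys. HSP90AB1 turned from -0.02 to 0.25 for δ over α with DESeq2. The stricter rule left 1 monkey with PP-cells and 6 with δ-cells, and 21, 1555, 233 and 122 genes passed for PP over α, δ over β, PP over β and PP over δ. For PP over δ, 2117 genes passed with DESeq2 and 727 in thinned cells. PP over α ran from 543 (without young male 4) to 1003. The share of calls that were higher moved by over 10 points in some settings: for δ over α from 16.8% to 38.0% with DESeq2, and for PP over δ from 62.6% to 46.5% without TMM. HSPB1 for β over α and HSP90AA1 for δ over β passed in every setting and without any single monkey. So did, apart from the stricter rule, whose single PP monkey is assumed to vary like the other groups and is no check, HSPB1 for PP over α, β and δ, HSP90AA1 for PP over α and β, and HSPH1 for PP over δ. The causes of these moves were not tested, beyond the fewer cells or monkeys that some settings leave. δ- and PP-cells rest on 101 and 66 cells, and counts of all genes for δ and PP are limited by them. Age in PP-cells could not be refitted with the stricter rule or with at least 10 cells.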
